A study of Mus musculus with 12 samples.

Results

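In all, 10 endothelial genes were followed across the 12 kidney libraries of a study of augmenter of liver regeneration (ALR, gene Gfer) in ischemic acute kidney injury. They were picked by symbol from a table of 55487 Ensembl genes, of which 29160 had a count in at least 1 library, and the rule that chose them names symbols and uses no measured value. 6 are genes of endothelial identity (Pecam1, Cdh5, Kdr, Flt1, Emcn and Tek) and 4 are genes named for endothelial activation (Plvap, Sele, Selp and Icam1). RNA was labelled as kidney cortex and came from mice on a mixed C57BL/6 background, 6 to 8 weeks old by the study's methods. The groups were control mice without injury (Ctrl), knockout mice without injury (PT-KO), control mice after ischemia-reperfusion (Ctrl+I/R) and knockout mice after ischemia-reperfusion (PT-KO+I/R), with 3 libraries each. The labels call the control genotype WT, whereas the methods describe ALR flox/flox mice without Cre. PT-KO mice, labelled ALR knockdown, carried the same floxed alleles with a Ggt1-Cre transgene, which acts in proximal tubule cells, so that the endothelium itself was not the target of the deletion. For I/R both kidneys were made ischemic for 22 min and then reperfused for 24 h, and the uninjured groups are labelled Sham. The study describes its sequenced groups as groups of mice, with as many per group as there are libraries, while the labels do not tie a library to an animal.

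Endothelial cells line the renal arteries, the glomerular tufts and the fenestrated peritubular capillaries that surround the tubules. The identity genes make the junctions and receptors by which these cells are recognised. Pecam1 and Cdh5 (VE-cadherin) are adhesion molecules of the junctions between neighbouring endothelial cells. Kdr and Flt1 are receptors of vascular endothelial growth factors, Tek (Tie2) is the receptor of the angiopoietins, and Emcn is a surface sialomucin of capillaries and veins. When endothelium is exposed to cytokines it displays adhesion molecules that slow and stop leukocytes. Sele (E-selectin) and Selp (P-selectin) carry the rolling step, and Icam1 binds the leukocyte integrins made of Itgal or Itgam with Itgb2. Plvap forms the diaphragms of capillary fenestrae, and fenestrated capillaries of an uninjured kidney already make it.

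The members lie at separate loci, except for the selectins. In GRCm38 (mm10), Sele (chr1:164048234-164057677, plus strand) and Selp (chr1:164115264-164150026, plus strand) are 57586 bases apart. Icam1 is at chr9:21015985-21028817 and Plvap at chr8:71497765-71511752. Of the identity genes, Kdr (chr5:75932827-75978458) and Flt1 (chr5:147561604-147726011) share a chromosome but are far apart. Tek is at chr4:94739289-94874976, Cdh5 at chr8:104101625-104144511, Pecam1 at chr11:106654217-106750628 and Emcn at chr3:137341067-137432185. Exons of Selp and Icam1 overlap exons of genes on the opposite strand, and without strand such reads cannot be told apart. The overlapping genes held at most 10 counts a library at Selp and at most 13 at Icam1.

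RefSeq promoter windows of GRCm38.p6, taken as the 250 bases before the start of transcription, were at hand for 7 of the 10 members. Those of the leukocyte adhesion genes are shown because these are the members that cytokines are known to induce. Capitals mark TGANTCA (AP-1), TATAAA (a box that helps to position the start of transcription) and GGANATTCC. The last is a letter pattern picked after the windows had been read. TATAAA was searched on the strand shown only, and the other patterns on both strands. The windows are chr1:164047984-164048233 (Sele), chr1:164115014-164115263 (Selp) and chr9:21015690-21015939 (Icam1), all on the plus strand. The Icam1 window ends short of the gene start given above, and the bases after it were not found in an Icam1 transcript.
Sele: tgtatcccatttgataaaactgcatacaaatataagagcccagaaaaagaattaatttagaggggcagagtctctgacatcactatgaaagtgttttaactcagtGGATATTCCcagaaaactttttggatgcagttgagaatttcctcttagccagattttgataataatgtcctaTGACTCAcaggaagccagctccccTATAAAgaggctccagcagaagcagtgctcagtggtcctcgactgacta
Selp: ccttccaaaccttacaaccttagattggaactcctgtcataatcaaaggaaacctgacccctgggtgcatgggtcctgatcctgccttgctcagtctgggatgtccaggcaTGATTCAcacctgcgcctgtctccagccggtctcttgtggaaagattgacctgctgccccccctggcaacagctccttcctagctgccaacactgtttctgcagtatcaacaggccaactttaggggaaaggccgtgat
Icam1: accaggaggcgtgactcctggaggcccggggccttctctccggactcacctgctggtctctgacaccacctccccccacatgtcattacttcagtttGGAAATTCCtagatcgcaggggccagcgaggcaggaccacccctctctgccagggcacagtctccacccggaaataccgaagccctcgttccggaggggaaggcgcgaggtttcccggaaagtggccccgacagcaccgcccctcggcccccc
GGANATTCC occurs once in the Sele window and once in the Icam1 window, and in 0.819% of 32851 mouse promoter windows of this length. TGANTCA occurs once each in Sele and Selp (6.75% of all windows hold it), and TATAAA in Sele but in neither of the other windows shown here (7.59% of all windows). A longer NF-kB consensus, searched by name and held by 7.25% of all windows, matched none of these windows and matched once each in Kdr and Flt1.

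The windows of Tek and Kdr are shown because these receptor genes part from each other in injured PT-KO kidneys. Here the capitals mark GGAA, the core letters of sites for ETS factors, on either strand (TTCC on the strand shown). The windows are chr4:94739039-94739288 on the plus strand for Tek and chr5:75978456-75978705 on the minus strand for Kdr.
Tek: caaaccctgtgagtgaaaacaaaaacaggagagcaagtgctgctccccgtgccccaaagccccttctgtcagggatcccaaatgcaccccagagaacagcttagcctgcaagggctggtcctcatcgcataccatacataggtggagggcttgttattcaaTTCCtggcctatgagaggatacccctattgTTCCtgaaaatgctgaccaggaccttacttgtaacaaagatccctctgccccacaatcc
Kdr: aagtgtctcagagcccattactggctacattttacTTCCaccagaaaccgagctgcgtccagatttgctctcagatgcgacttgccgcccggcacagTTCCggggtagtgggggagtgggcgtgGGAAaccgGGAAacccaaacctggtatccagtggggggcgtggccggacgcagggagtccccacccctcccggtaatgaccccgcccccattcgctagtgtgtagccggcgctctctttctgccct
Tek holds 2 such matches and Kdr 4, and 93.4% of all windows hold at least 1, with a median of 3. Emcn and Flt1 also hold 4. Such a match describes the letters and no binding was measured.

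Library totals ran from 12165089 to 23123693 counts, and 20416 to 22210 genes had a count in a library. Ctrl libraries 1 and 2 held at least 19755 counts of Xist, the transcript of the inactive X chromosome, and 0 counts of 4 Y-linked genes, while the other 10 libraries held at most 11 Xist counts and at least 3109 Y-linked counts. Sex is not in the labels. Sex by these transcripts is thus partly confounded with group in comparisons with Ctrl, and the members' results and most others against Ctrl are also given without these libraries. That leaves 1 Ctrl library, number 3. Those values come from 1 joint fit of the other 10 libraries with its own filter, which changes the fit as well as the libraries. Ctrl library 3 scattered from Ctrl libraries 1 and 2 by 61 and 58.5 times counting error, next to 8.2 between libraries 1 and 2. Gfer, the targeted gene, was at 9.96 to 17.1 CPM (counts scaled to library size) in PT-KO and 11.4 to 14.4 in Ctrl. After injury it was at 21.6 to 22.8 CPM in PT-KO+I/R and 15.3 to 19.98 CPM in Ctrl+I/R, higher in all libraries of the knockout although not called (log2 fold change 0.32, adjusted p = 0.0723 by edgeR). Its counts in bulk tissue thus do not show the loss that the label names. The study itself reports lower ALR in kidneys of its knockout mice. Every group and every direction below rests on the labels, so that PT-KO means the libraries labelled as such. Nephrin (Nphs1), a podocyte gene, and megalin (Lrp2), a proximal tubule gene, were present in every library. Slc14a2, a gene of the inner medulla named here after its values were seen, was present in every library too, at 10.7 to 62.5 CPM and with a range of 10.7 to 46.04 CPM within PT-KO. All CPM below were scaled by the trimmed mean of M values (TMM) over the 12 libraries, and all are levels in bulk tissue, where fewer cells of a type and less RNA per cell cannot be told apart.

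All 10 members were detected in each of the 12 libraries, at very different depths. Counts per library were between 255 and 2114 for the identity genes, 677 and 1767 for Plvap and 197 and 1316 for Icam1, but 5 to 42 for Sele and 2 to 75 for Selp. Per kilobase of exon, Plvap was the highest member in every group, at 38.2 CPM per kb in Ctrl and 25.7 in PT-KO+I/R. In Ctrl it was followed by Tek (12.3), Emcn (11.7), Pecam1 (10.7), Kdr (9.93) and Cdh5 (9.04), each overlapping its neighbour in this order. Flt1 (4.75) and Icam1 (2.93) lay clearly below them, and Sele (0.224) and Selp (0.0772) overlapped each other at the bottom. The order was different in PT-KO+I/R, where Tek stood eighth at 3.82 CPM per kb, below Icam1 (9.86) and Flt1 (6.17) with no overlap.

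**Figure D1:**
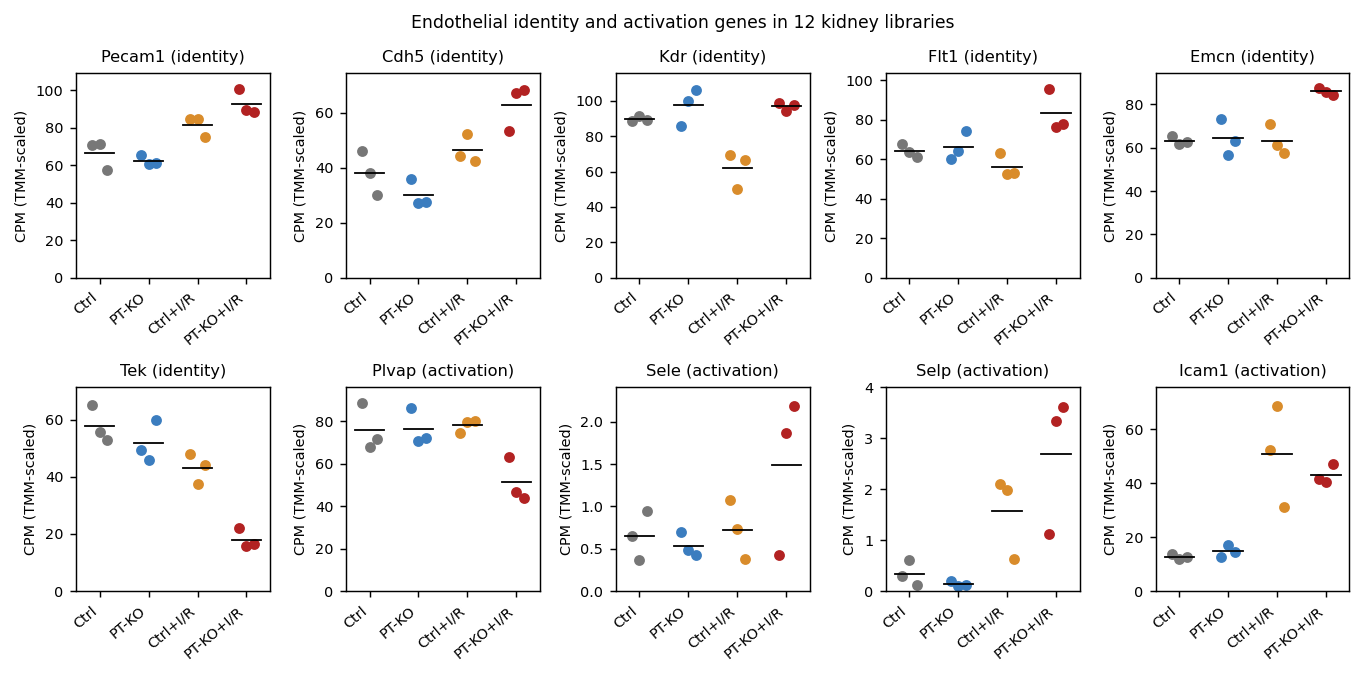
TMM-scaled CPM (y axis, from 0) of each of the 10 members in the 12 libraries, by group (x axis). Points are libraries and bars are means of 3. Tek and Plvap lie lowest in PT-KO+I/R, at 15.6 to 21.9 and 43.6 to 63.0 CPM, while Icam1 and Selp lie higher in both injured groups than in either uninjured group.

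The first question was how injury alone changed these genes in control mice. Icam1 and Selp rose, Sele and Plvap were not called, and of the 6 identity genes Kdr alone passed the test, with a fall. Icam1 had 13.6, 12.03 and 12.6 CPM in Ctrl libraries 1, 2 and 3, and 52.1, 68.7 and 31.2 CPM in Ctrl+I/R libraries 1, 2 and 4. Every injured library was therefore above every uninjured library, and library 4 was the lowest of its group. The increase was 3.98-fold (log2 fold change 1.99, SE 0.26, adjusted p = 0.00738, quasi-likelihood test of edgeR with Benjamini-Hochberg adjustment over all tested genes), and it was called under all 14 alternatives that were run.

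Selp, near absent in uninjured kidney, had 6, 10 and 2 counts in the Ctrl libraries and 47, 38 and 10 counts in the Ctrl+I/R libraries. The CPM did not overlap, at 0.111 to 0.610 in Ctrl and 0.632 to 2.10 in Ctrl+I/R. Its log2 fold change was 2.23 (SE 0.65, adjusted p = 0.0499 by edgeR), a call that was lost in 5 of the 6 fits that left out 1 library. Sele did not separate the groups, with 0.652, 0.366 and 0.941 CPM in Ctrl and 1.07, 0.730 and 0.379 CPM in Ctrl+I/R, at 6 to 24 counts a library (log2 fold change 0.18, SE 0.50, adjusted p = 0.821 by edgeR). Plvap also stayed within its spread, at 67.8 to 88.6 CPM in Ctrl and 74.3 to 80.3 CPM in Ctrl+I/R (log2 fold change 0.04, SE 0.12).

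Among the identity genes only Kdr was called. It had 88.5, 91.4 and 89.0 CPM in Ctrl and 69.7, 49.9 and 66.8 CPM in Ctrl+I/R, a log2 fold change of -0.52 (SE 0.14, adjusted p = 0.0434 by edgeR). The groups did not overlap, but the call was lost in 5 of the 6 fits without 1 library, and also with total counts in place of TMM (adjusted p = 0.0717). Tek went from 52.9 to 65.1 CPM in Ctrl to 37.4 to 48.0 CPM in Ctrl+I/R, with no overlap and a log2 fold change of -0.42 that missed the threshold (adjusted p = 0.0657 by edgeR) and passed it in 3 of 14 alternatives. Pecam1 was at 57.4 to 71.6 and 75.0 to 84.6 CPM (log2 fold change 0.29, adjusted p = 0.115 by edgeR), and the log2 fold changes of Cdh5, Flt1 and Emcn were 0.29, -0.18 and 0.00.

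In all, 3 of the 10 members were called between Ctrl+I/R and Ctrl, where 19.4% of the 15567 genes tested were called. Of these, 2 were higher and 1 lower, against 11.4% and 7.97% of all tested genes. In a joint fit to all 12 libraries 4 members were called, Tek being added (adjusted p = 0.0464 by edgeR). In the joint fit without the Ctrl libraries with Xist 1 was called, Icam1 (log2 fold change 1.99, adjusted p = 0.0210 by edgeR), while Kdr and Selp kept their direction (-0.54 and 3.74) without passing. The groups did not overlap for 5 members (Pecam1, Kdr, Tek, Selp and Icam1), where 43.6% of all tested genes did not.

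The knockout without injury was compared next. None of the 9 members tested was called between PT-KO and Ctrl, and the CPM of the groups overlapped for each of them, where 21% of all tested genes did not overlap. Over all genes, 0 of 15291 passed by edgeR (0%), although 2573 had an unadjusted p under 0.05 and DESeq2 called 458. No member had an unadjusted p under 0.05 by edgeR, and DESeq2 called none. The member with the lowest p was Cdh5, with a log2 fold change of -0.33 (SE 0.17, adjusted p = 0.359 by edgeR). The 2 to 3 Selp counts in each PT-KO library fell below the filter on low counts. Its rate was 0.417 of that in Ctrl, with an exact 95% Poisson interval of 0.147 to 1.05 that covers counting error only.

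Injury changed nearly all members in PT-KO mice, and here identity genes moved in both directions. Cdh5 rose 2.07-fold, from 35.9, 27.3 and 27.7 CPM in PT-KO libraries 1, 2 and 4 to 53.3, 67.1 and 68.2 CPM in PT-KO+I/R libraries 2, 3 and 4 (log2 fold change 1.05, SE 0.14, adjusted p = 8.66e-05 by edgeR). Pecam1 rose 1.48-fold, Emcn 1.33-fold and Flt1 1.25-fold, each without overlap between the groups, and the call of Flt1 was lost in 3 of the 6 fits that left out 1 library. Tek went the other way. It had 49.5, 45.8 and 59.9 CPM in PT-KO and 21.9, 15.6 and 16.4 CPM in PT-KO+I/R, so that the highest injured library was below the lowest uninjured library by more than either group's range. The fall was 2.91-fold (log2 fold change -1.54, SE 0.15, adjusted p = 1.27e-05 by edgeR). Kdr stayed within its spread, at 86.1 to 106 CPM in PT-KO and 94.0 to 99.0 CPM in PT-KO+I/R (adjusted p = 0.892 by edgeR).

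The activation genes also divided. Selp had 3, 2 and 2 counts in PT-KO and 13, 75 and 56 counts in PT-KO+I/R, a rate ratio of 21.0 with an exact 95% Poisson interval of 9.94 to 53.2 for counting error only (adjusted p = 0.000121 by edgeR). Icam1 rose 2.91-fold, from 12.7, 16.9 and 14.4 CPM to 41.5, 40.3 and 47.2 CPM (adjusted p = 3.69e-06 by edgeR). Sele had 0.693, 0.484 and 0.429 CPM in PT-KO and 0.427, 1.87 and 2.19 CPM in PT-KO+I/R, so that 1 injured library, with 5 counts, was level with the uninjured ones. It passed the test (log2 fold change 1.52, SE 0.54, adjusted p = 0.0306 by edgeR), but not in 4 of the 6 fits that left out 1 library. Plvap fell by 0.59 on the log2 scale (SE 0.14, adjusted p = 0.00408 by edgeR), from 86.2, 70.6 and 72.3 CPM to 63.0, 46.7 and 43.6 CPM.

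The count of called members in injured against uninjured PT-KO kidneys was therefore 9 of 10, 7 higher and 2 lower, in a comparison in which 65.5% of 15155 genes were called. The Xist-carrying libraries are not in this comparison.

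**Figure D2:**
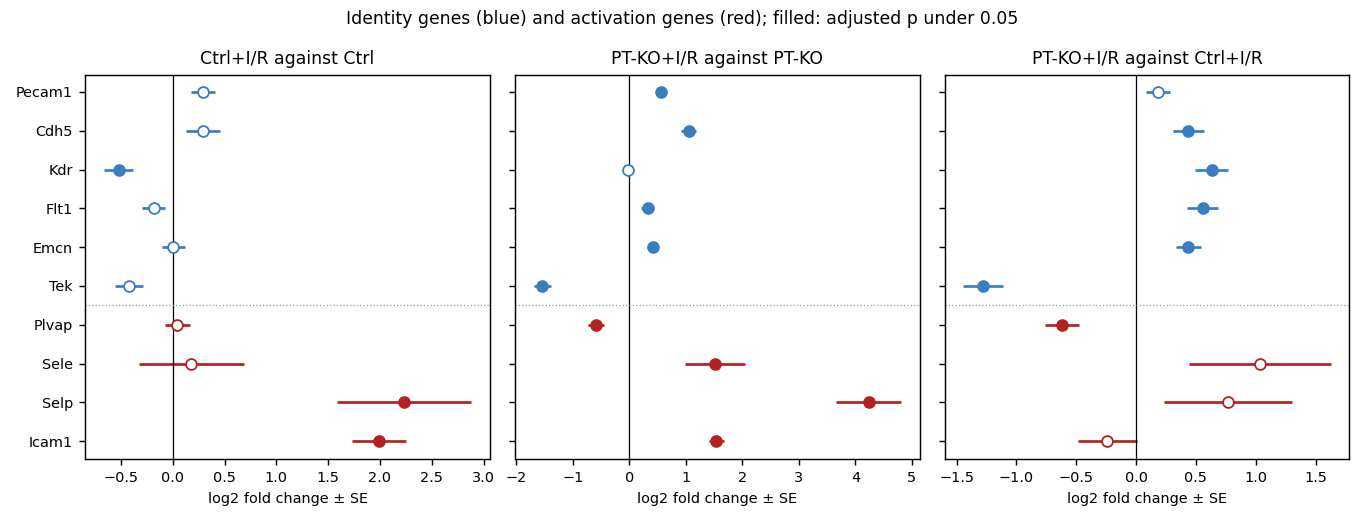
Log2 fold change (x axis, with SE) of each member with I/R in control mice (left), with I/R in PT-KO mice (middle) and between the injured genotypes (right). Blue marks identity genes and red activation genes, and filled points had an adjusted p under 0.05. The x axes differ between panels, and each injured group serves in 2 of the 3 panels. Tek stands apart from the other identity genes in PT-KO+I/R, at -1.54 against PT-KO and -1.28 against Ctrl+I/R.

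The last comparison was between injured kidneys with and without the knockout. Relative to Ctrl+I/R, PT-KO+I/R kidneys held more of 4 identity genes and less of Tek and Plvap. Tek was at 48.0, 37.4 and 44.2 CPM in Ctrl+I/R and 21.9, 15.6 and 16.4 CPM in PT-KO+I/R, which is 2.42-fold lower (log2 fold change -1.28, SE 0.16, adjusted p = 0.000876 by edgeR). Plvap was at 74.3, 79.5 and 80.3 CPM in Ctrl+I/R and 63.0, 46.7 and 43.6 CPM in PT-KO+I/R, 1.54-fold lower (SE 0.14 on a log2 fold change of -0.62, adjusted p = 0.00931 by edgeR). Both genes were lower in all 3 PT-KO+I/R libraries than in any Ctrl+I/R library.

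Kdr was 1.55-fold higher (SE 0.14 on a log2 fold change of 0.63, adjusted p = 0.00782 by edgeR), at 49.9 to 69.7 CPM in Ctrl+I/R and 94.0 to 99.0 CPM in PT-KO+I/R. Flt1 was at 63.4, 52.4 and 52.9 CPM in Ctrl+I/R and 95.6, 76.3 and 78.0 CPM in PT-KO+I/R, 1.47-fold higher (adjusted p = 0.00948 by edgeR). Emcn was at 57.6 to 70.8 CPM in Ctrl+I/R and 84.5 to 87.5 CPM in PT-KO+I/R, and Cdh5 at 42.7 to 52.2 and 53.3 to 68.2 CPM, with adjusted p-values of 0.0110 and 0.0254 by edgeR. The call of Cdh5 was lost in 4 of the 6 fits that left out 1 library. These increases depended on the scaling. With total counts in place of TMM, the median of all genes shifted by -0.21 on the log2 scale, Cdh5, Flt1 and Emcn no longer passed (adjusted p = 0.207, 0.0520 and 0.107), and Kdr still did (log2 fold change 0.43, adjusted p = 0.0244). Tek and Plvap were then lower still, at -1.48 and -0.82.

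The leukocyte adhesion genes showed no call between the injured groups. Icam1 was 31.2 to 68.7 CPM in Ctrl+I/R and 40.3 to 47.2 CPM in PT-KO+I/R (log2 fold change -0.24, SE 0.25, adjusted p = 0.445 by edgeR). Without Ctrl+I/R library 4, the lowest of its group, Icam1 was called lower in PT-KO+I/R (-0.50, adjusted p = 0.0256). Selp (0.77, SE 0.54) and Sele (1.04, SE 0.59) were higher on average with overlapping libraries, and Sele was called only without PT-KO+I/R library 2 (1.44, adjusted p = 0.0411). In total 6 of 10 members were called between the injured groups (4 higher and 2 lower), where 46.9% of 15281 genes were called, 22.5% higher and 24.4% lower. The libraries did not overlap for 7 members (the 6 identity genes and Plvap), and 58.7% of all tested genes did not overlap.

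The difference between the responses of the genotypes was tested directly as an interaction on all 12 libraries, where 30.6% of 16168 genes were called. It was called for 6 of 10 members. Tek fell more in PT-KO than in control mice, by 1.10 on the log2 scale (SE 0.21, adjusted p = 0.00272 by edgeR), and it remained called in each of the 12 fits without 1 library, and also without the Xist-carrying Ctrl libraries (-1.24, adjusted p = 0.0164). The other 5 calls were Cdh5 (0.77), Flt1 (0.52), Kdr (0.52), Emcn (0.42) and Plvap (-0.62), with adjusted p-values of 0.0257 to 0.0492, and each of these was lost without the Xist-carrying libraries (adjusted p of 0.0726 to 0.259). For Sele, Selp and Icam1 the interaction was not called (adjusted p of 0.147 to 0.307 by edgeR).

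Levels relative to other endothelial genes of the same library hardly depend on the scaling between libraries. The log2 CPM of Tek, less the mean log2 CPM of the other 5 identity genes, was -0.17 to -0.03 in Ctrl, -0.31 to -0.03 in PT-KO and -0.65 to -0.39 in Ctrl+I/R. In PT-KO+I/R it was -1.93, -2.36 and -2.30 in libraries 2, 3 and 4, far outside the range of the other 9 libraries. Plvap, set against all 6 identity genes, was between 0.14 and 0.54 in the other groups. The PT-KO+I/R libraries had -0.11, -0.41 and -0.53, below all of them. Icam1 was -2.31 to -1.67 in the 6 uninjured libraries and -0.82 to 0.33 in the 6 injured ones. The activation genes thus moved in opposite directions against the identity genes: in all injured PT-KO libraries Icam1 and Selp were above, and Plvap below, every uninjured PT-KO library. The exact permutation p of each 3 against 3 comparison that did not overlap was 0.1, the smallest it can give.

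**Figure D3:**
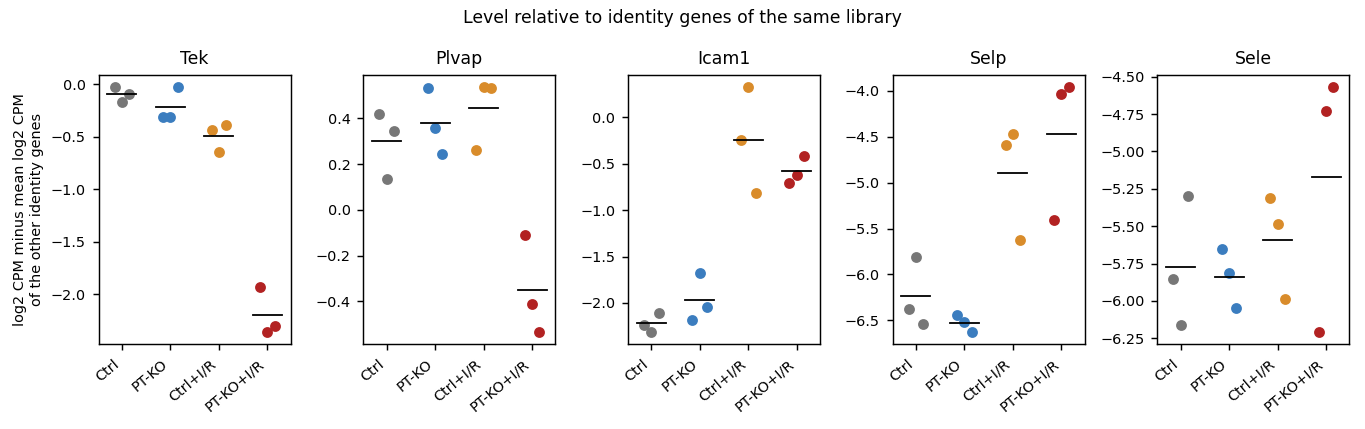
Log2 CPM of Tek, Plvap, Icam1, Selp and Sele in each library minus the mean log2 CPM of the identity genes of that library (for Tek, of the other 5). Points are libraries by group and bars are means of 3, and the y axes differ between panels. Tek and Plvap are lowest in the 3 PT-KO+I/R libraries, whereas Icam1 is higher in all 6 injured libraries.

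Other genes of endothelial identity were examined with a list of 27 genes, all tested. Only Ecscr, a surface protein of endothelial cells, was called in Ctrl+I/R against Ctrl (log2 fold change 1.01, SE 0.27, adjusted p = 0.0417 by edgeR), and it also passed without the Xist-carrying libraries (adjusted p = 0.0203). The median of the list was 0.00, against -0.01 for all tested genes. Between the injured groups, 3 were higher and 7 lower, with a median of -0.04, and this share lies below the 46.9% called over all genes (22.5% higher and 24.4% lower). The lowest was Myct1, at 5.37 to 7.32 CPM in Ctrl+I/R and 1.29 to 2.00 CPM in PT-KO+I/R (log2 fold change -1.84, SE 0.26, adjusted p = 0.00125 by edgeR). Cd34, a sialomucin that can carry selectin ligands, was at 37.7 to 46.1 and 16.8 to 20.9 CPM (-1.14, SE 0.13, adjusted p = 0.000615 by edgeR). Cyyr1 was the highest, at 9.23 to 11.2 and 18.5 to 22.5 CPM (1.01, SE 0.15, adjusted p = 0.00145 by edgeR). The spread within the list thus ran in both directions, as within the 6 identity members, and the summed level of the list was 523 to 561 CPM in Ctrl+I/R and 514 to 551 CPM in PT-KO+I/R.

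**Figure D4:**
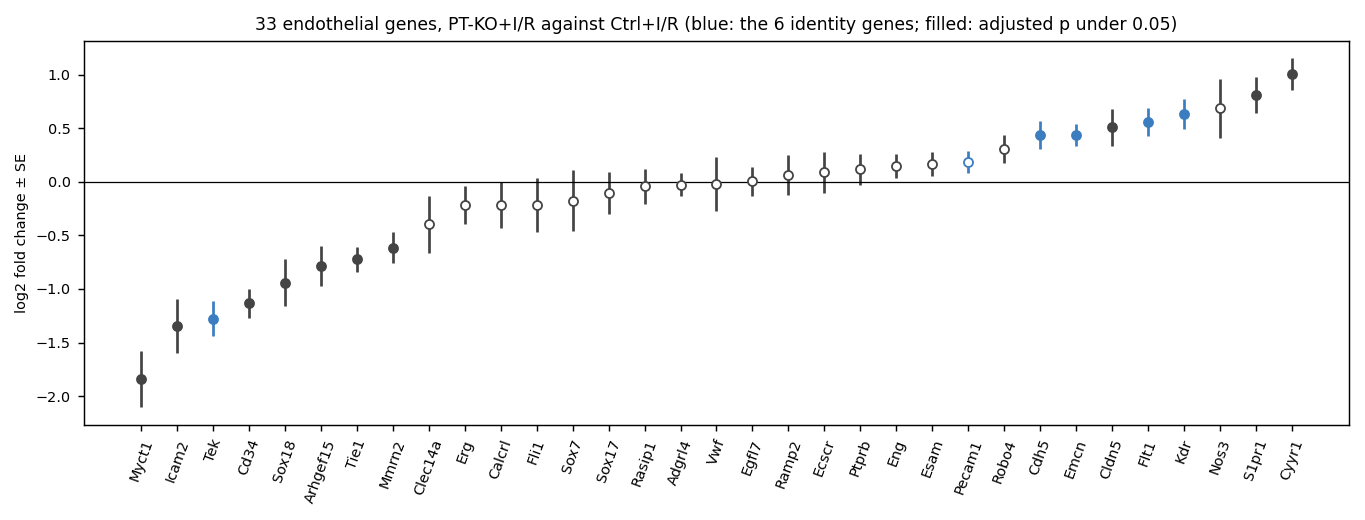
Log2 fold change (y axis, with SE) in injured PT-KO against injured control kidneys of 33 endothelial genes, ordered by value: the 6 identity members in blue and 27 others in grey. Filled points had an adjusted p under 0.05. Tek lies near the lower end with Myct1 and Cd34, and Kdr, Flt1, Emcn and Cdh5 near the upper end with Cyyr1.

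Genes of particular vessel segments were examined with the same test. Of 14 tested, 2 were higher and 4 lower in injured PT-KO than in injured control kidneys, where 46.9% of all tested genes were called, and with total counts 2 were higher and 7 lower. Plat (tissue plasminogen activator), which glomerular endothelium makes, was at 55.2 to 75.0 CPM in Ctrl+I/R and 165 to 203 CPM in PT-KO+I/R (log2 fold change 1.46, adjusted p = 0.000353 by edgeR). Lyve1, a receptor of lymphatic endothelium and some macrophages, went from 8 to 19 counts to 54 to 61 counts a library (2.40, adjusted p = 0.00310 by edgeR). Prox1 of lymphatic endothelium, which tubule cells also express, went the other way, at 4.17 to 8.47 CPM in Ctrl+I/R and 1.11 to 2.90 CPM in PT-KO+I/R (-1.40, adjusted p = 0.0223 by edgeR). Nr2f2, a factor of venous endothelium that other cells also express, was lower (-0.74, adjusted p = 0.00113 by edgeR). In Ctrl+I/R against Ctrl, Ehd3 of glomerular endothelium (-0.60) and Prox1 (-1.45) fell and Gja5 of arterial endothelium rose (0.63). Without the Xist-carrying libraries none of these last genes passed (adjusted p of 0.0910, 0.0998 and 0.199).

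The ligands and partners of the receptor members were followed with 13 genes. Vegfa, the ligand of Kdr and Flt1, which podocytes and tubule cells secrete, fell in control mice (log2 fold change -0.60, SE 0.15, adjusted p = 0.0314 by edgeR) and was lower again in injured PT-KO than in injured control kidneys (-0.81, SE 0.15, adjusted p = 0.00378 by edgeR). It stood at 214 to 245 CPM in Ctrl, 201 to 216 in PT-KO, 125 to 170 in Ctrl+I/R and 73.8 to 93.7 in PT-KO+I/R. Both injured groups thus lay below both uninjured groups. With total counts in place of TMM, no gene of the list, Vegfa included, was called lower with injury in control mice. The fall in control mice missed the threshold without the Xist-carrying libraries (adjusted p = 0.0886). Tie1, the partner receptor of Tek, was at 26.8 to 31.4 CPM in Ctrl+I/R and 16.5 to 18.4 CPM in PT-KO+I/R, lower in the same comparison as Tek (-0.72, SE 0.12, adjusted p = 0.00219 by edgeR). Vegfc, a ligand of the lymphatic receptor and of Kdr, was higher (1.33, SE 0.27, adjusted p = 0.00592 by edgeR), and Nrp2, a co-receptor of these ligands, rose with injury in control mice (0.38, adjusted p = 0.0397 by edgeR) and in PT-KO mice (0.43, adjusted p = 0.0134 by edgeR). In control mice Nrp2 did not pass without the Xist-carrying libraries (adjusted p = 0.134). Over the whole list, 2 genes were higher and 5 lower in injured PT-KO than in injured control kidneys, not far from the 46.9% called over all genes.

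A list of 20 genes linked to activated endothelium, most of them also made by other cells, moved upward with injury in both genotypes. Of 17 tested in Ctrl+I/R against Ctrl, 13 rose and none fell, with a median log2 fold change of 1.22, where 11.4% of all tested genes were higher and 7.97% lower. Without the Xist-carrying libraries 9 of 19 rose. In injured against uninjured PT-KO kidneys, 15 of 18 rose and none fell, with a median of 2.04, where 32.9% of all tested genes were higher and 32.7% lower. The chemokine gene Cxcl1 rose from 0.554 to 1.40 CPM in Ctrl to 18.5 to 82.1 CPM in Ctrl+I/R (adjusted p = 0.00440 by edgeR), and Lrg1 from 0.671 to 1.61 to 17.6 to 46.4 CPM (adjusted p = 0.00265 by edgeR). Without the Xist-carrying libraries both passed (adjusted p of 0.0156 and 0.0101).

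Between the injured groups 6 were higher, 3 lower and 10 not called, a share close to the 46.9% called over all genes. Thbd (thrombomodulin), an anticoagulant receptor, was at 22.2 to 48.9 CPM in Ctrl+I/R and 126 to 156 CPM in PT-KO+I/R (log2 fold change 1.98, SE 0.25, adjusted p = 0.000825 by edgeR). Nfkbia, an inhibitor of NF-kB that NF-kB itself induces, was higher by 0.91 (adjusted p = 0.000474 by edgeR). Cx3cl1, a chemokine that is tethered to the cell surface, was the reverse: it was at 80.5 to 108 CPM in Ctrl+I/R and at 47.9 to 51.4 CPM in PT-KO+I/R, next to 37.8 to 49.4 CPM in uninjured kidney (-0.99, SE 0.13, adjusted p = 0.000877 by edgeR). Of 4 genes that laminar flow induces in endothelium, Klf2 (0.55, adjusted p = 0.0223 by edgeR), Klf4 (0.97, adjusted p = 0.0248 by edgeR) and Thbd were higher in injured PT-KO than in injured control kidneys. With total counts Klf2 and Klf4 did not pass (adjusted p of 0.122 and 0.0637), and neither is particular to endothelium.

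The leukocyte partners of the selectins and of Icam1 mostly rose in injured control kidneys, and none was called higher in injured PT-KO than in injured control kidneys. Of 8 such genes 7 rose in Ctrl+I/R against Ctrl, with a median log2 fold change of 1.75 (11.4% of all tested genes rose), and 4 of 8 did so without the Xist-carrying libraries. In PT-KO+I/R 5 of 8 were lower than in Ctrl+I/R and none was higher, with a median of -1.69, where 24.4% of all tested genes were lower. Itgb2, the common chain of the Icam1 receptors, was at 3.49 to 5.31 CPM in Ctrl, 9.48 to 22.97 CPM in Ctrl+I/R and 4.35 to 4.83 CPM in PT-KO+I/R (-1.83 between the injured groups, SE 0.31, adjusted p = 0.00248 by edgeR). Itgal was at 6.95 to 12.3 and 0.512 to 2.13 CPM in the injured groups (-2.89, adjusted p = 0.00154 by edgeR), and Itgax (-2.98) and Spn (-2.89) were lower as well. The rises of Itgal and Spn in control mice did not pass without the Xist-carrying libraries (adjusted p of 0.107 and 0.0590). Itgam, whose level marks neutrophils and monocytes, was 1.52 to 5.40 CPM in Ctrl+I/R and 2.90 to 3.56 CPM in PT-KO+I/R, both above uninjured kidney, which had at most 0.366 CPM (adjusted p = 0.722 between the injured groups by edgeR). Cd44, a hyaluronan receptor that injured tubules also express, likewise rose in control mice (2.96, adjusted p = 0.00912 by edgeR, and 0.0164 without the Xist-carrying libraries) and was not called between the injured groups.

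**Figure D5:**
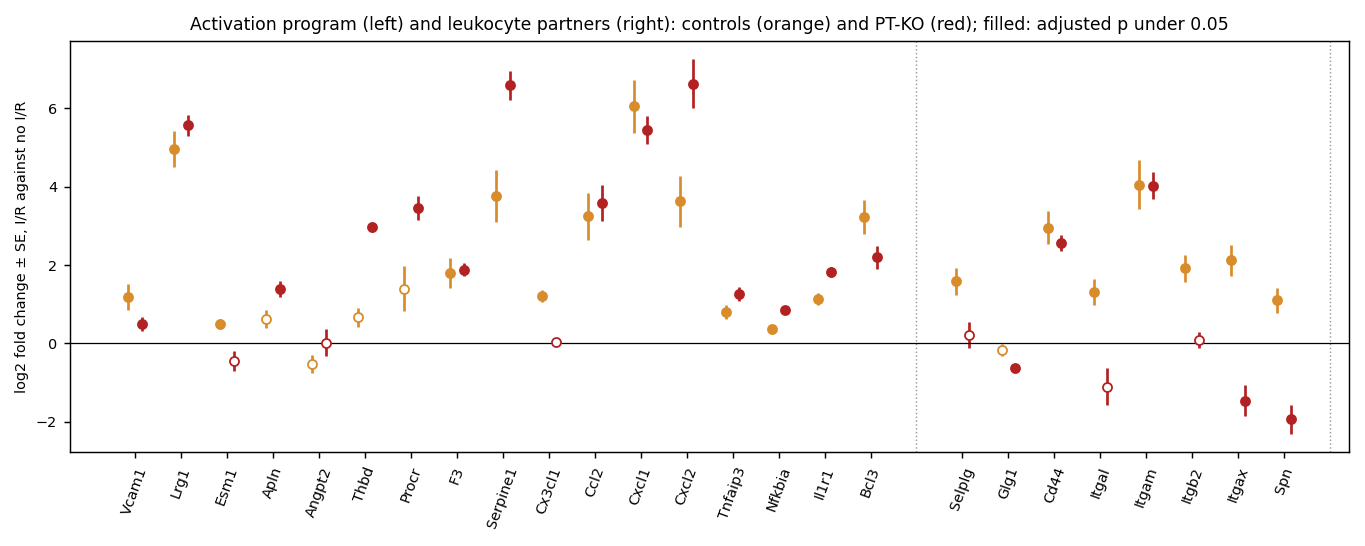
Log2 fold change with I/R (y axis, with SE) of activation genes (left of the first dotted line) and of leukocyte partners of the selectins and Icam1 (right), in control mice (orange) and PT-KO mice (red). Filled points had an adjusted p under 0.05, and genes without a test in both genotypes are left out. Itgax and Spn were called higher in control mice and lower in PT-KO mice, whereas Lrg1, Cxcl1 and Itgam were called higher in both.

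Some members are also made by other cells, and the markers of those cells moved with the groups. Pecam1 and Icam1 are found on leukocytes, and Selp is stored in platelets as well as in endothelium. The summed level of 10 leukocyte markers was 67.3 to 85.6 CPM in Ctrl, 71.2 to 74.3 in PT-KO, 89.5 to 131 in Ctrl+I/R and 78.1 to 108 in PT-KO+I/R, and 6 of 9 tested rose in Ctrl+I/R against Ctrl (3 of 9 without the Xist-carrying libraries). Of all genes tested in Ctrl+I/R against Ctrl, 11.4% rose. The general leukocyte marker Ptprc was at 19.0 to 39.6 CPM in Ctrl+I/R and 5.81 to 6.51 CPM in PT-KO+I/R. The macrophage genes Adgre1 and Csf1r were also lower in injured PT-KO than in injured control kidneys (-4.37 and -1.42, adjusted p = 0.000251 and 0.00171 by edgeR). In the same comparison 3 of the 7 markers tested were higher and 3 lower, where 22.5% of all tested genes were higher and 24.4% lower. With total counts 2 of the 7 were higher and 3 lower. The higher markers, like Adgre1 and Csf1r, are named after their values were seen. S100a8, made by neutrophils and monocytes, was at 1.39 to 9.23 CPM in Ctrl+I/R and 13.8 to 17.3 CPM in PT-KO+I/R (adjusted p = 0.0394 by edgeR). S100a9, its partner, was higher by 1.67 (adjusted p = 0.0130 by edgeR) and Cd68 of macrophages by 0.76 (adjusted p = 0.0117 by edgeR). Ly6g, a neutrophil gene, was at 0 in the 6 uninjured libraries and at most 0.256 CPM in the injured ones. Of 7 platelet markers Gp1bb was at 0 in all libraries, 3 were tested, and 2 of these (Pf4 and Ppbp) rose with injury in each genotype, as Selp did. In control mice neither passed without the Xist-carrying libraries (adjusted p of 0.0848 and 0.175). Between the injured groups Pf4 was lower in PT-KO+I/R (-1.38, adjusted p = 0.0437 by edgeR), at 0.854 to 1.56 CPM next to 1.52 to 5.35 CPM in Ctrl+I/R, whereas Selp was not called (0.77). Their summed level was 5.43 to 7.07, 5.38 to 6.50, 7.39 to 11.4 and 4.70 to 8.27 CPM in Ctrl, PT-KO, Ctrl+I/R and PT-KO+I/R. Itga2b of megakaryocytes and platelets was not called in either genotype (log2 fold changes -0.55 and -0.63).

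Markers of pericytes and smooth muscle, which wrap the endothelium, summed to 215 to 291 CPM in Ctrl, 196 to 289 in PT-KO, 337 to 420 in Ctrl+I/R and 248 to 363 in PT-KO+I/R, and 4 of 8 rose in Ctrl+I/R against Ctrl (2 of 8 without the Xist-carrying libraries). Of all genes tested in Ctrl+I/R against Ctrl, 11.4% rose. In injured PT-KO against injured control kidneys 3 of the 8 markers were lower and none higher. Their median was -0.49, where 24.4% of all tested genes were lower. With total counts 6 of the 8 were lower. Among them, Cspg4 of pericytes, named after its values were seen, was at 21.1 to 29.6 CPM in Ctrl+I/R and 6.92 to 7.92 CPM in PT-KO+I/R (-1.69, adjusted p = 0.000412 by edgeR), lower in the same comparison as Tek and Plvap. The summed level of 6 proximal tubule markers was 11970 to 12910 CPM in Ctrl, 11290 to 13050 in PT-KO, 3305 to 7847 in Ctrl+I/R and 2091 to 2680 in PT-KO+I/R. That of 3 markers of injured tubule was 3.05 to 7.26 CPM in Ctrl, 1.94 to 4.10 in PT-KO, 551 to 2615 in Ctrl+I/R and 4789 to 6307 in PT-KO+I/R. Of 5 podocyte markers, Nphs1 alone was lower in injured PT-KO than in injured control kidneys (-1.19, adjusted p = 0.00112 by edgeR), and of 7 markers of the loop of Henle and collecting duct 3 were lower. The summed level of the identity members was 353 to 404, 354 to 393, 338 to 381 and 429 to 458 CPM in the same groups. The part of these other cells in the levels of the members was not tested.

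Lastly, the genes whose profile over the 12 libraries was closest to a member were found by the root mean square difference of centred log2 CPM over the 12367 genes that averaged 50 counts or more. For Cdh5 these were Lamc1 (0.108), Smtn (0.118) and Dbn1 (0.122). For Sele, which is measured with few counts, they were Rpusd2 (0.276), Mob3c (0.306) and Lrrc8c (0.320). None of the 6 is on the endothelial lists used here, and libraries share depth and injury, so this is a description of likeness only.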

How the data were processed

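Whole-number read counts per gene in 12 mouse kidney libraries were deposited by the authors as 1 table, neither normalized nor filtered. RNA was extracted with TRIzol and sequenced on an Illumina platform by the study's methods (the labels also name another kit), and the submitters' processing notes name HISAT2 2.0.4 and mm10. The counting program, annotation and strand setting are not given in the sources used here. A column numbered 3 was taken as the control library whose title carries another number, since its name shows only the group, and it was given a block of its own. Of 55487 identifiers, 55141 had a symbol in GENCODE M21. Replicate libraries scattered by 8.20 to 66.3 times counting error, so none was a repeat of another and depth did not limit genes of high count.

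Genes were filtered with filterByExpr, scaled with TMM and compared by the quasi-likelihood test (edgeR 4.0.16, R 4.3.3), using the 6 libraries concerned or, for the interaction, all 12. Genes with an adjusted p (Benjamini-Hochberg, all tested genes) under 0.05 were called. Levels are CPM scaled by TMM over the 12 libraries. Exact two-sided permutation tests of 3 against 3 libraries cannot go below p = 0.1. The alternatives were DESeq2 1.42.0, total counts, no filter, a minimum of 10 counts per library, a joint fit of the 12 libraries, a replicate block, sex as a covariate, leaving out the Ctrl libraries with Xist in a joint fit of the other 10, and leaving out each library in turn. The main fit of each comparison was first tested on simulated data, and the alternatives were not.

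The members and gene lists were chosen with earlier results of these data known. From the list of leukocyte partners 1 gene is not reported here, and its counts and median leave it out. Genes other than members were named by a rule: from each list, up to 3 called genes with the lowest adjusted p in injured PT-KO against injured control kidneys and in Ctrl+I/R against Ctrl, the first gene of each marker list, a few further markers, and the 3 genes closest in profile to Cdh5 and to Sele. Comparisons share libraries (Ctrl, PT-KO, Ctrl+I/R and PT-KO+I/R each serve in 2 pairwise comparisons), so their results are not independent of each other.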

Additional observations from a re-analysis of the deposited data

Results flagged for a closer look

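For 6 members the response to I/R differed between PT-KO and control mice by the interaction test of edgeR, which is what brought them here. The difference of the log2 fold changes (PT-KO minus control) was -1.10 for Tek (SE 0.21, adjusted p = 0.00272), -0.62 for Plvap (SE 0.21, adjusted p = 0.0387), 0.77 for Cdh5 (SE 0.23, adjusted p = 0.0257), 0.52 for Kdr (SE 0.17, adjusted p = 0.0366), 0.52 for Flt1 (SE 0.17, adjusted p = 0.0326) and 0.42 for Emcn (SE 0.15, adjusted p = 0.0492). Tek and Plvap fell in PT-KO mice, by 1.54 and 0.59 on the log2 scale, and were not called in control mice (-0.42 and 0.04). Kdr was called in control mice (-0.52) and not in PT-KO mice (-0.02). The call of Tek was made under all 19 alternatives that were run. Emcn was called under 3 of the 19, Kdr under 5, Flt1 under 7, Plvap under 8 and Cdh5 under 9. Leaving out the Ctrl libraries with Xist left Tek as the only member called.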

How the results depend on the processing

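No member reversed a called direction under the alternatives run. In Ctrl+I/R against Ctrl, 3 members were called, 4 by DESeq2 and in the joint fit to all 12 libraries (Tek being added), 1 in the joint fit without the Ctrl libraries with Xist, and between 1 and 3 without each library in turn. Only leaving out Ctrl+I/R library 4 kept 3 calls, and Icam1 was called in all. Tek passed in 3 of 14 alternatives (lowest adjusted p = 0.0405) and Pecam1 in 1 (0.0274, with sex as a covariate). In injured PT-KO against injured control kidneys, 6 were called, 3 with total counts and 5 to 7 without each library in turn. For the interaction, 6 were called, 2 with total counts, 3 without the filter, 1 with sex as a covariate, 1 without the Ctrl libraries with Xist, and between 2 and 4 without each library in turn. In injured against uninjured PT-KO kidneys, 9 were called and 7 to 9 under every alternative. In PT-KO against Ctrl, 0 were called throughout. Over all genes, Ctrl+I/R against Ctrl called 3019, 4938 in a fit to all 12 libraries, 1219 in the same kind of fit without the Ctrl libraries with Xist, and 379 to 4061 without each library in turn. PT-KO against Ctrl called 0 genes, 458 by DESeq2, 388 without the filter, 1 with total counts, 1378 with the replicate block and 0 to 1930 without each library in turn. The interaction called 4953, 3215 with the replicate block, 3233 with sex as a covariate and 2539 without the Ctrl libraries with Xist. The causes were not tested.

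Replicate numbers did not pair the libraries: the median correlation of residuals over 12 same-numbered pairs was -0.03, and 1 pair was over 0.1. With the replicate block, 1 member (Tek) was called in injured PT-KO against injured control kidneys, where 1683 genes were called in place of 7169, and 2 for the interaction. At 2 to 75 counts a library, depth limits Sele and Selp.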
